A study of Mus musculus with 8 samples.

Results

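The canonical Wnt ligands measured here were Wnt1, Wnt2, Wnt2b, Wnt3, Wnt3a, Wnt8a, Wnt8b, Wnt9a, Wnt10a and Wnt10b, the Wnt family members usually classed as acting through beta-catenin. They were taken by gene name from the non-control probes of the arrays, which gave 12 probes for 10 genes, out of 55681 probes and 36373 gene names in all. Messenger RNA was profiled on 8 Agilent 1-colour arrays of mouse cells, taken 6 days into the neural induction by which embryonic stem cells (ESC) become progenitors of radial glia type (RGC-like NPC in the labels). In the 4 KD d6 samples the cells carried a short hairpin RNA against Zrf1 (shZrf1), and in the 4 Control d6 samples a control hairpin (shCtrl). Zrf1 (current symbol Dnajc2) encodes a ribosome-bound chaperone with a J domain that can also sit on ubiquitylated histone H2A. The sources used here do not give the ESC line, the hairpin sequences or whether the cells were a pool or a clone, and the labels do not say that the 4 samples of a group came from separate cultures, so the p-values measure only the spread between these samples.

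Wnt ligands are secreted, lipid-modified glycoproteins. A canonical ligand bridges a Frizzled receptor and the co-receptor Lrp5 or Lrp6, which spares beta-catenin from destruction and lets it switch on genes together with TCF and LEF factors. In the developing nervous system such ligands are made by dorsal and boundary signalling centres, among them the roof plate, the cortical hem and the junction of midbrain and hindbrain, and they pattern the tissue and keep progenitors dividing.

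Among these ligands Wnt3, Wnt1 and Wnt10a were lower in KD d6 cells, Wnt9a was higher, and Wnt10b was marginally higher. Wnt3 and Wnt10a were measurable in every Control d6 array and in none of the KD d6 arrays, where they were at least 6.39-fold and at least 1.47-fold lower. Wnt1 was 3.26-fold lower at its brighter probe, and Wnt9a was 2.67-fold higher. Wnt8a was tested without passing, and Wnt2, Wnt2b, Wnt3a and Wnt8b were too dim to be tested.

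Probe positions are those of the deposited files on mouse build mm9. Wnt1 carried a pair of probes whose starts lie 925 bases apart, and the one that lies further inside the transcript is printed to show the stretch of Wnt1 that it reads. It covers chr15:98623276-98623335 on the + strand, from position 1385 of NM_021279, and the capitals mark TGA, the stop that closes an open reading frame of the probe.
Wnt1 A_55_P2001033: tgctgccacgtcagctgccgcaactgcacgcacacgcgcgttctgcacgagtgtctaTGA
The other Wnt1 probe, A_55_P2106911, covers chr15:98624201-98624260 on the + strand from position 2310 of the same transcript and contains AATAAA, the polyadenylation signal. Whether the remaining member probes lie in exons or untranslated regions was not analysed here.

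RefSeq promoters, each of 300 bases with 250 before and 50 after the annotated start (build GRCm38.p6), were used here for 8 members and not for Wnt10a and Wnt8a. They are shown for Wnt3 and Wnt1, which fell, and Wnt9a, which rose. The capitals in Wnt3 mark CTTTGTT, a TCF and LEF factor motif, whose first base is base 19 after the start.
Wnt3 chr11:103773925-103774224 (+): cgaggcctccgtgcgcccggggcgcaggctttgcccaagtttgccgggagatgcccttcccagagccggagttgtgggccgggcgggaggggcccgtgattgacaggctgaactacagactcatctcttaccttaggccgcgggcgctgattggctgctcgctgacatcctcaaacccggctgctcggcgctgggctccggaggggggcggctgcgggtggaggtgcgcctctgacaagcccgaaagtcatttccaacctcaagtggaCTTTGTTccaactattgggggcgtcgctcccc
Wnt1 chr15:98789607-98789906 (+): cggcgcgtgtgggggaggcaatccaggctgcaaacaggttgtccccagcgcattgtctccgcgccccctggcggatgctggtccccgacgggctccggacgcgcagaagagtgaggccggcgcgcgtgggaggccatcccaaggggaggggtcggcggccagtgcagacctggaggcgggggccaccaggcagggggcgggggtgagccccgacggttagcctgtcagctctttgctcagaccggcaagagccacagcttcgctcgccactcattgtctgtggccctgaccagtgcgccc
Wnt9a chr11:59306680-59306979 (+): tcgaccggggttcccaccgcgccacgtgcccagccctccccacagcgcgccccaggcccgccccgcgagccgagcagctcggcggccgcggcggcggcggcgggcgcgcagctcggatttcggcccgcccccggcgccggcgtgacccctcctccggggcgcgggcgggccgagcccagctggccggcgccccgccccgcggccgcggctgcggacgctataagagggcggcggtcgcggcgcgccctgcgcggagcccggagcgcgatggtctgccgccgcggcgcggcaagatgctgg
The motif was searched on both strands as CTTTG followed by AA, AT, TA or TT. It stood in 1 of the 8 member promoters and in 16.9% of 32851 promoters of the same length. A match is a string of letters and not a measured site. The member promoters held 48.33% to 86.33% G and C against a median of 52.7% for all promoters, and 7 of the 8 had more CpG pairs than the median promoter, which had 7.

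Signals are log2 values from which the array's 75th percentile was subtracted, so that 0 is that percentile. Levels of different probes are not read as relative transcript amounts, but they chose 1 probe per gene and were added in marker sums. A probe was tested where all 4 arrays of KD d6, of Control d6 or of both read it well above background, and it was called at a Benjamini-Hochberg adjusted p under 0.05 in limma. Each array had 59305 non-control spots, of which 53.4% to 60.3% were well above background and 0 were saturated. The targeted gene was checked with Dnajc2 probe A_52_P533198, which gave -2.17, -2.08, -2.51 and -2.53 in KD d6 arrays 1 to 4, against 1.75, 1.87, 1.85 and 2.02 in Control d6 arrays 1 to 4 (change -4.19, SE 0.12, limma adjusted p = 1.38e-07). The scanner files of KD d6 arrays 1 and 2 share a number in their names, as do those of arrays 3 and 4, and what it marks is not stated. In each pair 1 name also carries the letters TR, which are not defined. The SD over probes of the log2 difference was 0.32 between arrays 1 and 2 and 0.34 between arrays 3 and 4. It ran from 0.26 to 0.37 between KD d6 arrays that do not share a number. What the shared number means was not tested. If a pair is 1 sample measured again, KD d6 holds fewer than 4 samples. The SD and p-values given for 4 arrays could then understate the spread between samples. Averaging each such pair, as if it were 1 sample, ended the call of Wnt10b (0.55, limma adjusted p = 0.115) and of no other member. Across the array 57.1% of 29097 tested probes were called, 28.1% lower and 29.0% higher in KD d6, so a call was the commoner outcome for any probe. Of the called probes 50.83% were higher in KD d6, and 37.7% were with arrays scaled by their median. Of the 7 tested member probes, which stand for 6 genes, 4 were lower, 2 were higher and 1 was not called. Their median change was -1.70, beside 0.05 for all tested probes, but 3 of the 4 lower probes entered the test through the Control d6 arrays alone and so had to differ. The groups did not overlap for 5 of the 7, against 54.1% of all tested probes.

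**Figure D1:**
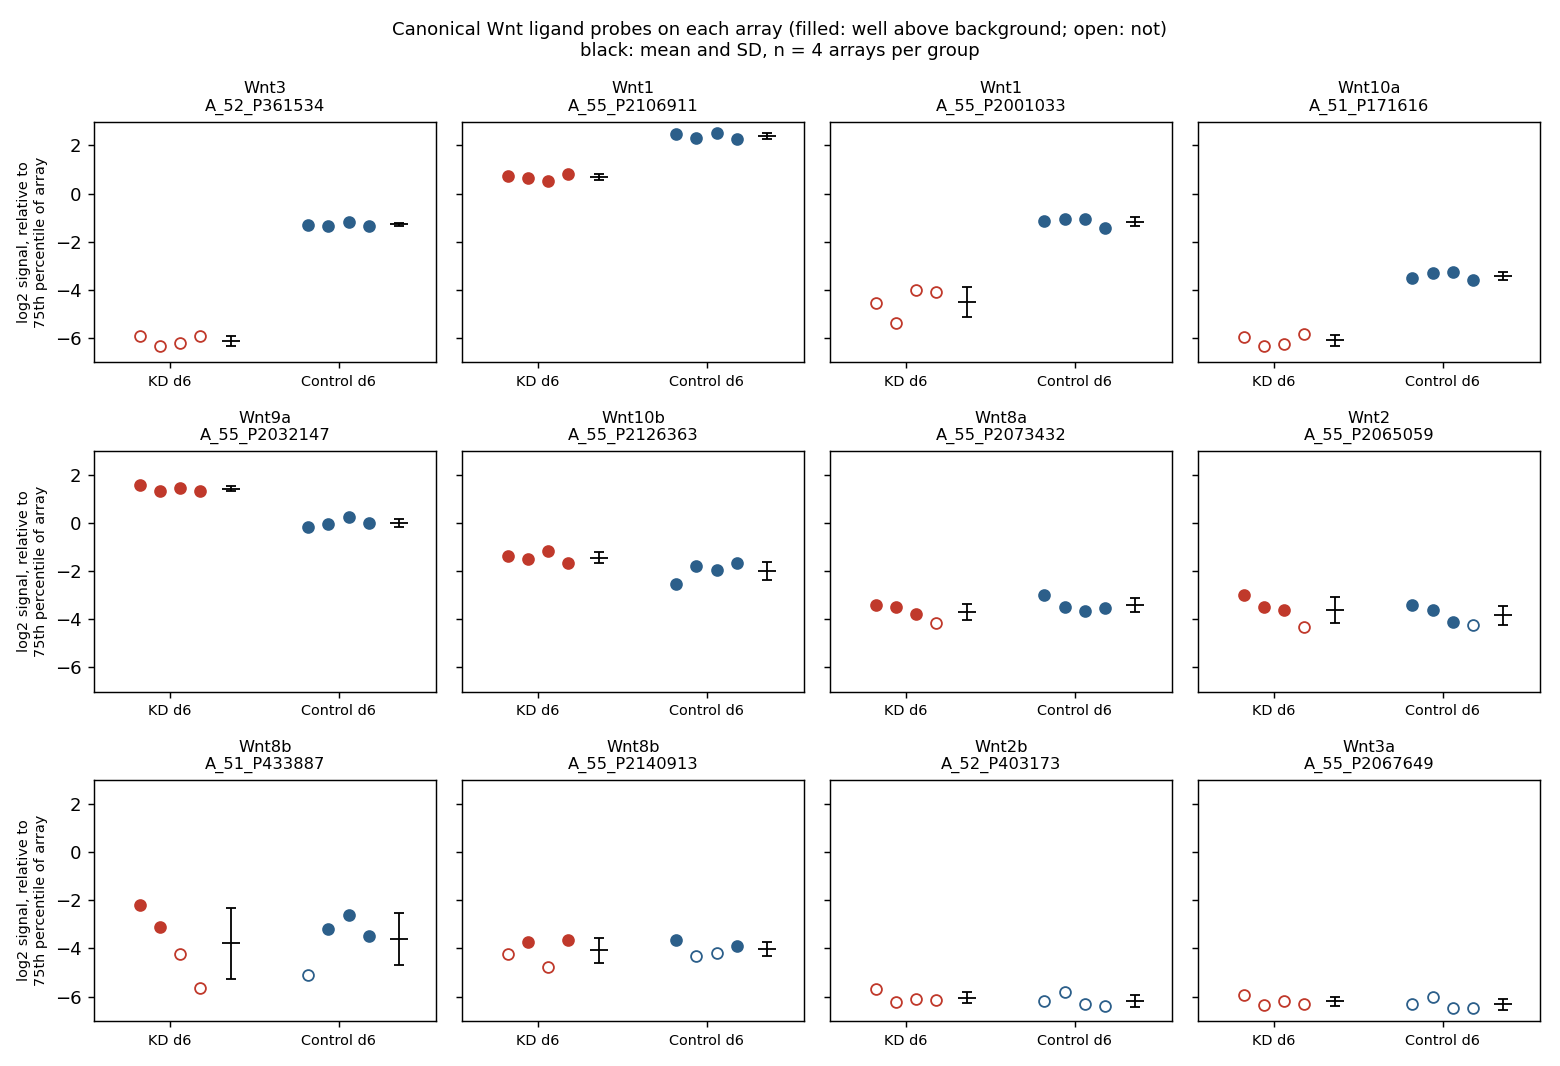
Log2 signal relative to the 75th percentile of the array (vertical axis) of the 12 probes of 10 canonical Wnt ligands in 4 KD d6 arrays (red, left) and 4 Control d6 arrays (blue, right). Filled points were well above background, open points were not, and black marks give the mean and SD. Wnt3, Wnt10a and the inner Wnt1 probe (A_55_P2001033) are open on all KD d6 arrays and filled on all Control d6 arrays, and Wnt9a is the only probe whose KD d6 points all lie above its Control d6 points.

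Wnt3, which in the mouse is needed for the primitive streak to form and is later made in the dorsal neural tube, was read by probe A_52_P361534 (NM_009521, chr11:103679038-103679097, + strand). Its log2 signal was -5.93, -6.34, -6.21 and -5.92 in KD d6 arrays 1 to 4, against -1.29, -1.34, -1.18 and -1.33 in Control d6 arrays 1 to 4. All Control d6 arrays were well above background and no KD d6 array was, and 3 of the 4 KD d6 values are substitute values that the scanner software writes for dim spots. The means were -6.10 ± 0.21 in KD d6 and -1.29 ± 0.07 in Control d6 arrays (SD, n = 4 each). With dim arrays bounded by the detection limit, the fall is at least 6.39-fold. That bound sets each KD d6 array at the higher of its own signal and the lowest signal among its probes well above background. It carries no interval. The fitted change, which takes the dim signals as they stand, was -4.81 (SE 0.11, limma adjusted p = 6.65e-08). The probe entered the test through the Control d6 arrays alone and so had to differ. The arrays lay on 3 slides that each held both groups, with only 1 array of each group on slides 1 and 3. The plain difference between groups was -4.58, -5.02 and -4.63 within slides 1, 2 and 3. In bulk RNA of this kind, fewer cells making a transcript and less transcript per cell cannot be told apart.

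Wnt1 is the ligand of the midbrain-hindbrain junction and the roof plate, and mice without it lack much of the midbrain and cerebellum. Probe A_55_P2106911 was well above background on all 8 arrays, at 0.73, 0.66, 0.53 and 0.80 in KD d6 arrays 1 to 4, against 2.45, 2.31, 2.53 and 2.25 in Control d6 arrays 1 to 4. Every KD d6 array lay below every Control d6 array, and arrays within a group sat close together. The means were 0.68 ± 0.12 in KD d6 and 2.38 ± 0.13 in Control d6 arrays (SD, n = 4 each), a change of -1.70 (SE 0.09, limma adjusted p = 1.88e-06) that is 3.26-fold lower. Within slides 1, 2 and 3 it was -1.58, -1.79 and -1.64.

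The inner Wnt1 probe, A_55_P2001033, printed above, moved the same way. It gave -4.55, -5.39, -3.99 and -4.08 in KD d6 arrays 1 to 4, against -1.16, -1.05, -1.06 and -1.45 in Control d6 arrays 1 to 4. It was well above background on all Control d6 arrays and on no KD d6 array. The probe entered the test through the Control d6 arrays alone and so had to differ. Its direction and the lack of overlap between the groups are therefore not separate support. Its means were -4.50 ± 0.64 in KD d6 and -1.18 ± 0.19 in Control d6 arrays (SD, n = 4 each), at least 6.86-fold lower (fitted change -3.32, SE 0.29, limma adjusted p = 2.73e-05). The plain difference between groups was -3.49, -3.44 and -2.92 within slides 1, 2 and 3. Under normexp background correction (offset 50) with quantile normalization the changes were -1.76 at the inner probe and -1.53 at the other, both called.

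Wnt10a, a ligand of skin, hair and tooth development, was read by probe A_51_P171616 (NM_009518, chr1:74850633-74850692, + strand). Its log2 signal was -5.94, -6.33, -6.25 and -5.84 in KD d6 arrays 1 to 4, against -3.50, -3.29, -3.27 and -3.59 in Control d6 arrays 1 to 4. The Control d6 values were measurable but near the detection limit, and no KD d6 array was well above background. Of the 4 KD d6 values, 2 are substitute values of the scanner software. The probe entered the test through the Control d6 arrays alone and so had to differ. The means were -6.09 ± 0.24 in KD d6 and -3.41 ± 0.16 in Control d6 arrays (SD, n = 4 each). Because the starting level was low, the fall is bounded only at 1.47-fold or more (fitted change -2.68, SE 0.13, limma adjusted p = 1.43e-06). The plain difference between groups was -2.65, -2.86 and -2.34 within slides 1, 2 and 3. Under normexp correction with quantile normalization the change was -0.77 for Wnt10a and -2.07 for Wnt3, both still called.

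Wnt9a, which takes part in joint formation in the mouse skeleton, was the member with the clearest rise. Probe A_55_P2032147 (NM_139298, chr11:59146953-59147012, + strand) gave 1.55, 1.32, 1.44 and 1.33 in KD d6 arrays 1 to 4, against -0.19, -0.04, 0.24 and -0.02 in Control d6 arrays 1 to 4. All 8 arrays were well above background and each KD d6 array lay above each Control d6 array. The means were 1.41 ± 0.11 in KD d6 and -0.01 ± 0.18 in Control d6 arrays (SD, n = 4 each). The change was 1.41 (SE 0.11, 95% interval 1.17 to 1.66, limma adjusted p = 1.02e-05), which is 2.67-fold higher. Within slides 1, 2 and 3 it was 1.60, 1.27 and 1.52.

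Wnt10b, which favours bone over fat formation, was read by probe A_55_P2126363 (NM_011718, chr15:98602209-98602268, - strand). It gave -1.38, -1.52, -1.18 and -1.69 in KD d6 arrays 1 to 4, against -2.53, -1.80, -1.98 and -1.66 in Control d6 arrays 1 to 4. The groups overlapped at KD d6 array 4 and Control d6 array 4, and Control d6 array 1 lay below all others. The means were -1.44 ± 0.21 in KD d6 and -1.99 ± 0.38 in Control d6 arrays (SD, n = 4 each), a change of 0.55 (SE 0.20, limma adjusted p = 0.0418) that is 1.46-fold higher. The call held under 7 of 21 other settings, with limma adjusted p values between 0.0109 and 0.18 over the 21. It was lost without Control d6 array 1 (0.37, adjusted p = 0.0579), without Control d6 array 3 (0.55, adjusted p = 0.077) and without KD d6 array 1 (0.53, adjusted p = 0.0913), 2 (0.57, adjusted p = 0.0687) or 3 (0.46, adjusted p = 0.106).

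Wnt8a, a ligand of the early posterior embryo, was read by probe A_55_P2073432 (NM_009290, chromosome 18) near the detection limit. It gave -3.41, -3.48, -3.77 and -4.14 in KD d6 arrays 1 to 4, against -3.00, -3.51, -3.66 and -3.54 in Control d6 arrays 1 to 4. KD d6 array 4 was not well above background, the groups overlapped, and the change of -0.27 (SE 0.20, 95% interval -0.73 to 0.19, limma adjusted p = 0.284) did not pass. It was 0.10, -0.02 and -1.14 within slides 1, 2 and 3. With arrays scaled by their median the change was -0.44 and passed (limma adjusted p = 0.0437), and that scaling moved the median change of all probes by -0.17.

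**Figure D2:**
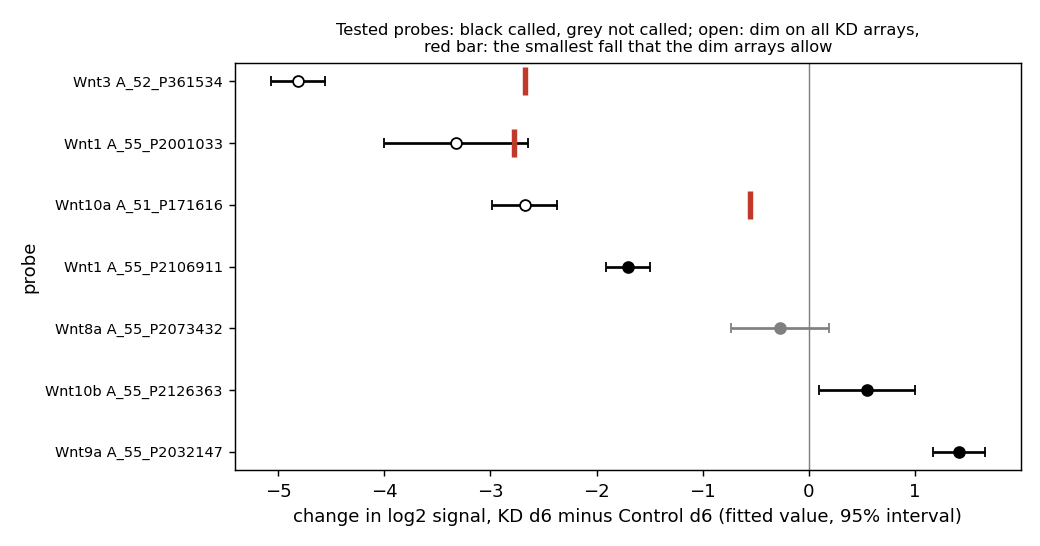
Change in log2 signal, KD d6 minus Control d6, with its 95% interval (horizontal axis) for the 7 tested probes (vertical axis). Black was called, grey was not, and open symbols were dim on all KD d6 arrays. Red bars mark the bound on the fall, given without an interval, which is -2.68 for Wnt3, -2.78 for the inner Wnt1 probe and -0.55 for Wnt10a. The intervals of Wnt9a and Wnt10b lie above 0, and that of Wnt8a includes 0.

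The 5 untested probes belong to 4 genes. Wnt2, which acts in placental vessels and lung, was read by A_55_P2065059 (NM_023653, chr6:17938994-17939053, - strand) at -3.00, -3.51, -3.63 and -4.32 in KD d6 arrays 1 to 4, against -3.40, -3.64, -4.12 and -4.23 in Control d6 arrays 1 to 4. It was well above background on 3 arrays of each group, and the groups overlapped. Wnt8b, a ligand of the embryonic forebrain, had a pair of probes, of which A_51_P433887 scattered more widely. A_51_P433887 (NM_011720, chr19:44585759-44585818, + strand) gave -2.19, -3.10, -4.24 and -5.64 in KD d6 arrays 1 to 4, against -5.12, -3.20, -2.62 and -3.48 in Control d6 arrays 1 to 4. It was well above background on 2 KD d6 and 3 Control d6 arrays. A_55_P2140913 (NM_011720, chr19:44588615-44588674, + strand) gave -4.22, -3.72, -4.76 and -3.64 in KD d6 arrays 1 to 4, against -3.67, -4.30, -4.19 and -3.91 in Control d6 arrays 1 to 4. It was well above background on 2 arrays of each group, and in both Wnt8b probes the groups overlapped.

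Wnt2b, which takes part in lung specification, and Wnt3a, the ligand of the cortical hem and the tail bud, were not well above background on any of the 8 arrays. Probe A_52_P403173 of Wnt2b (NM_009520, chr3:104748831-104748890, - strand) ranged over -6.21 to -5.70 in KD d6 and -6.38 to -5.82 in Control d6 arrays. Probe A_55_P2067649 of Wnt3a (NM_009522, chr11:59061556-59061615, - strand) ranged over -6.34 to -5.92 in KD d6 and -6.49 to -6.00 in Control d6 arrays. All of these are substitute values, which carry no order, so a difference in either gene was not detectable here.

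Several of the members sit beside another Wnt gene, and neighbours are given side by side. By the RefSeq gene table, no protein-coding gene lies between Wnt1 and Wnt10b on chromosome 15 (probes 21.1 kb apart on mm9), Wnt9a and Wnt3a on chromosome 11 (85.4 kb), Wnt3 and Wnt9b on chromosome 11 (90.2 kb), or Wnt10a and Wnt6 on chromosome 1 (19.2 kb). Wnt1 was lower while the change of Wnt10b was 0.55, and Wnt9a rose while Wnt3a stayed under the detection limit in both groups. Wnt6, a ligand of epithelia and mesoderm, had -1.66, -1.91, -1.87 and -1.99 in KD d6 arrays 1 to 4, against 1.12, 1.12, 1.44 and 1.19 in Control d6 arrays 1 to 4 (probe A_52_P415155, chr1:74831461-74831520, + strand). It fell, as did its neighbour Wnt10a, and the change of -3.07 (SE 0.11, limma adjusted p = 2.60e-07) is 8.41-fold lower. Wnt9b, a kidney tubule ligand, was not tested, because probe A_52_P15377 (chr11:103588882-103588941, - strand) was well above background on 0 KD d6 and 3 Control d6 arrays. It gave -5.62, -4.29, -5.62 and -4.51 in KD d6 arrays 1 to 4, against -3.02, -3.48, -3.65 and -3.04 in Control d6 arrays 1 to 4. No KD d6 value and only some Control d6 values were measurable, so no direction is read for Wnt9b.

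**Figure D3:**
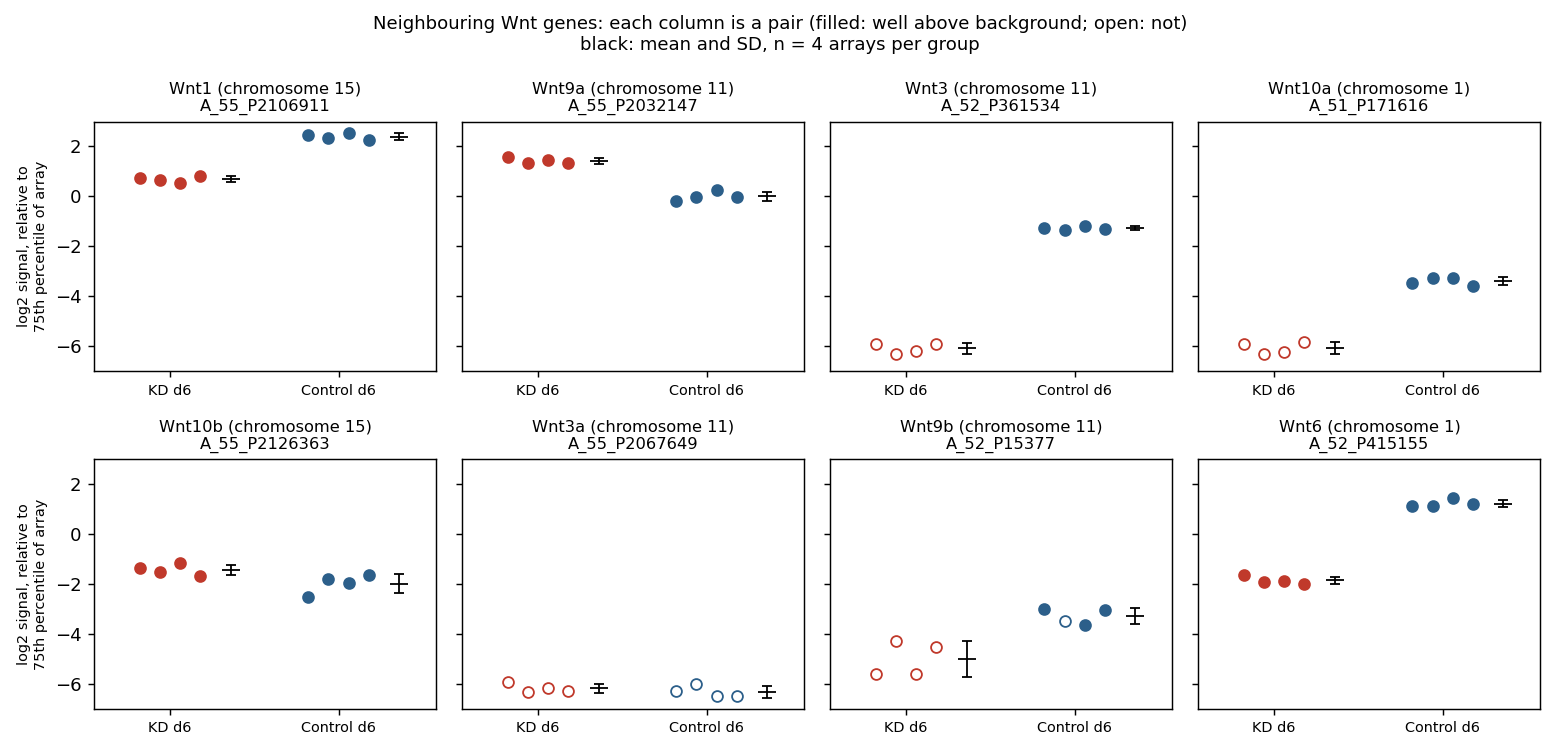
Log2 signal relative to the 75th percentile of the array (vertical axis) of neighbouring Wnt genes, a pair per column, in 4 KD d6 arrays (red, left) and 4 Control d6 arrays (blue, right). Filled points were well above background, open points were not, and black marks give the mean and SD. KD d6 points lie lower for both Wnt10a and Wnt6, Wnt9b beside Wnt3 has open points on all KD d6 arrays and on Control d6 array 2, and Wnt10b overlaps between groups where Wnt1 does not.

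The profile most like that of Wnt1 over the 8 arrays was sought among 13461 other gene probes well above background on all of them, using the root mean square difference between centred profiles. The nearest were the zinc finger genes Zfp84 (0.06) and Zfp41 (0.0733) and the chromatin remodelling ATPase Chd3 (0.0762), against a median of 0.862 over all candidates. Their changes were -1.63, -1.66 and -1.66, beside -1.70 for Wnt1 itself. Such closeness follows from the choice, since the profiles were matched on these same 8 arrays.

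The rest of the pathway was read with 1 probe per gene in lists of textbook members, and across all genes tested this way 57.6% of 21752 were called, 28.5% lower and 29.1% higher. Of the 8 tested other Wnt ligands, 3 fell (Wnt6, Wnt5b, Wnt5a), 3 rose (Wnt11, Wnt7b, Wnt7a) and 2 did not pass (Wnt16, Wnt4), with a median change of 0.37 beside 0.04 over all tested genes. Wnt5b, a ligand mostly linked to beta-catenin-independent signalling, averaged -0.68 ± 0.07 in KD d6 and 1.20 ± 0.07 in Control d6 arrays (SD, n = 4 each), 3.68-fold lower (limma adjusted p = 3.08e-07). Of 6 genes for processing and secretion of Wnt proteins, 4 fell, 1 rose and 1 did not pass (median change -0.79). Wls, the carrier that takes lipidated Wnt proteins to the cell surface, averaged 1.36 ± 0.11 in KD d6 and 2.56 ± 0.13 in Control d6 arrays, 2.31-fold lower (limma adjusted p = 1.14e-05). Porcn, the acyltransferase that adds the lipid, averaged 0.92 ± 0.11 in KD d6 and 2.01 ± 0.12 in Control d6 arrays, 2.13-fold lower (limma adjusted p = 1.63e-05).

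Receptors fell more often than they rose. Of 15 tested Frizzled receptors and co-receptors, 8 fell, 1 rose and 6 did not pass (median change -0.22). Fzd10, a receptor of the dorsal neural tube, was 16.6-fold lower, at -0.08 ± 0.08 in KD d6 and 3.97 ± 0.16 in Control d6 arrays (SD, n = 4 each, limma adjusted p = 6.83e-08). Fzd4, the receptor of blood vessel growth in the retina, was the member that rose, to 0.67 ± 0.06 in KD d6 against -0.74 ± 0.08 in Control d6 arrays, 2.65-fold higher (limma adjusted p = 1.16e-06). Among 7 tested R-spondins and their receptors, secreted Wnt enhancers and their partners, 4 fell, 2 rose and 1 did not pass (median change -0.38). Lgr5, a stem cell receptor for R-spondins, averaged -2.83 ± 0.15 in KD d6 and -0.52 ± 0.09 in Control d6 arrays, 4.96-fold lower (limma adjusted p = 5.22e-07). Rspo4 averaged -2.71 ± 0.10 in KD d6 arrays, was well above background on 0 of 4 Control d6 arrays (-5.91 ± 0.07), and was at least 2.62-fold higher (limma adjusted p = 6.65e-08). It entered the test through the KD d6 arrays alone and so had to differ, and its p takes the dim Control d6 signals as they stand.

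Secreted antagonists moved in both directions, with 6 higher, 5 lower and 1 not called of 12 tested (median change 0.30). Of the 6 higher, Wif1 was dim on all Control d6 arrays. It entered the test through the KD d6 arrays alone and so had to differ. Sfrp4, a decoy that binds Wnt proteins, averaged -1.46 ± 0.07 in KD d6 and -3.81 ± 0.24 in Control d6 arrays, where 3 of 4 were well above background (change 2.35, limma adjusted p = 1.55e-06). Its relative Sfrp2 averaged 1.40 ± 0.15 in KD d6 and 3.43 ± 0.17 in Control d6 arrays, 4.08-fold lower (limma adjusted p = 2.07e-06). Most of the 20 intracellular components of the beta-catenin pathway did not pass: 5 fell, 2 rose and 13 did not (median change -0.04). Lef1, a DNA-binding partner of beta-catenin, averaged 1.97 ± 0.11 in KD d6 and 3.29 ± 0.06 in Control d6 arrays, 2.50-fold lower (limma adjusted p = 2.53e-06), and its other probe was 4.39-fold lower (change -2.13, limma adjusted p = 4.51e-07). The co-repressor Tle1 was lower at 2 of its 3 probes, 1.99-fold at A_55_P1968355 (0.98 ± 0.03 in KD d6 and 1.98 ± 0.04 in Control d6 arrays, limma adjusted p = 2.51e-06) and 1.89-fold at A_66_P137556 (limma adjusted p = 0.0037). At A_55_P1968362 the change was -0.05 (limma adjusted p = 0.806).

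All 10 tested Wnt target genes were called, 7 lower (Sp5, Ccnd1, Cdx2, Myc, Cdx1, Axin2, Nkd1) and 3 higher (Sp8, Tbx6, Nkd2), with a median change of -2.20. Sp5, a direct target of the pathway, averaged -1.66 ± 0.17 in KD d6 and 3.78 ± 0.08 in Control d6 arrays, 43.5-fold lower (SD, n = 4 each, limma adjusted p = 3.34e-08). The cyclin Ccnd1 averaged 0.00 ± 0.09 in KD d6 and 3.26 ± 0.05 in Control d6 arrays, 9.55-fold lower (limma adjusted p = 5.04e-08). Axin2, the feedback inhibitor of the pathway, named after its value was seen, averaged -3.19 ± 0.13 in KD d6 and -1.30 ± 0.14 in Control d6 arrays, 3.69-fold lower (limma adjusted p = 1.64e-06). That is its tested probe of highest mean signal, which was low in KD d6 arrays, and changes at any other Axin2 probe are not given here. Many of these targets also mark posterior or neural cells and respond to other signals.

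**Figure D4:**
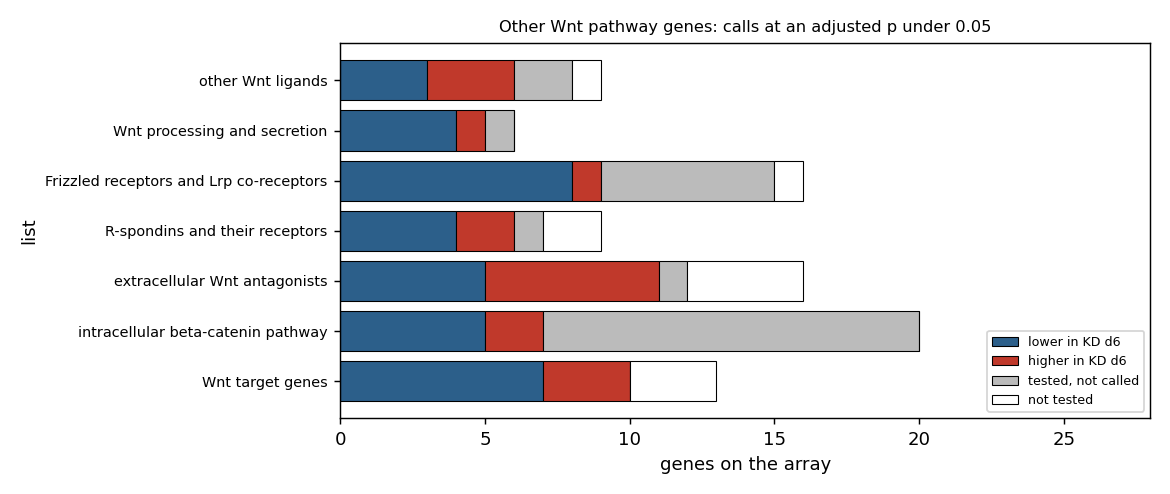
Number of genes on the array (horizontal axis) in 7 lists of other Wnt pathway genes (vertical axis), split into lower in KD d6, higher in KD d6, tested but not called, and not tested. Receptors (8 lower, 1 higher) and target genes (7 lower, 3 higher) have more blue than red, the antagonists have 5 lower and 6 higher, and 13 of 20 intracellular genes are grey.

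Marker lists of neural signalling centres and of other cell types that such cultures could hold were read beside the ligands. For comparison, 57.6% of all 21752 tested genes were called, 28.5% lower and 29.1% higher. The summed signal of each list is given as a multiple of the array's 75th percentile, as the range over 4 arrays, and a bright probe can carry most of such a sum. Of 10 neural progenitor and radial glia markers, 9 fell, 0 rose and 1, Pax6, did not pass, with a sum of 38.5 to 40.9 in KD d6 against 131.7 to 141.3 in Control d6 arrays. Of 10 roof plate and cortical hem markers, 7 fell and 3 rose, with a sum of 20.9 to 22.5 in KD d6 against 97.4 to 110.1 in Control d6 arrays, where Zic1 made up 67.1% of the mean sum. Of 5 tested midbrain-hindbrain markers, 2 rose, 0 fell and 3 did not pass (5.10 to 5.90 in KD d6 against 3.77 to 4.10 in Control d6 arrays), and En1 and Pax5 were well above background on 0 of the 8 arrays. Of 6 tested primitive streak and posterior markers, 3 rose, 2 fell and 1 did not pass (2.81 to 3.19 in KD d6 against 15.2 to 19.8 in Control d6 arrays, where Cdx1 made up 85.9%), while Mixl1, Mesp1 and Cdx4 were never well above background. All 9 tested endoderm markers rose, with a sum of 10.14 to 11.04 in KD d6 against 2.30 to 2.76 in Control d6 arrays, and of 7 fibroblast markers 4 rose and 3 did not pass (9.66 to 10.3 in KD d6 against 6.03 to 6.10 in Control d6 arrays). Of 8 neuron markers 6 fell, 1 rose and 1 did not pass (10.8 to 11.7 in KD d6 arrays, where Stmn2 made up 69.9%, against 9.86 to 11.4 in Control d6 arrays), and of 7 pluripotency markers 4 fell, 2 rose and 1 did not pass (22.6 to 24.2 in KD d6 against 56.8 to 64.1 in Control d6 arrays). Some genes stand in more than 1 of these lists. The endoderm markers Afp and Sox7 were dim on all Control d6 arrays. Fabp7 of the neural progenitor list and Neurod1 of the neuron list were dim on all KD d6 arrays. Each of them entered the test through the other group alone and so had to differ. The part of these marker shifts in the changes of Wnt1, Wnt3, Wnt9a and Wnt10a was not tested.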

How the data were processed

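Spot intensity on 8 arrays, 4 KD d6 and 4 Control d6, comes from the deposited scanner files, extracted with Agilent Feature Extraction 10.7.3.1 and corrected for background within each array, per the file headers. The authors' deposited value table, in log2 units, served as an alternative only and correlated at 0.99999 or above with normexp (offset 50) and quantile-normalized values computed here; how the authors made it is not given in the sources used here. Here, outlier spots were dropped, spots of a probe averaged, log2 taken and each array's 75th percentile subtracted. KD d6 was compared with Control d6 by limma 3.58.1 in R 4.3.3 (lmFit, eBayes, 2-sided) over 29097 probes, with Benjamini-Hochberg adjustment and a threshold of 0.05, after the fit was tested on simulated data.

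For the pathway, each gene was represented by its probe of highest mean signal. By accession, symbol or synonym in a RefSeq table, 26294, 2049 and 355 probes were matched, and 26983 kept the name in the file. The members and lists were chosen with earlier results of these data known. The genes named are all members, Dnajc2, up to 2 called genes per pathway list with the smallest p, the 3 nearest profiles and neighbouring Wnt genes; Axin2 was added after its value was seen, and other list members and markers are named without their levels. Alternatives changed the background correction, scaling, filter, probe choice, slide, replicates and outlier spots, or used the authors' table. The number of arrays limits the precision.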

Additional observations from a re-analysis of the deposited data

How the results depend on the processing

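Wnt3, both Wnt1 probes, Wnt10a and Wnt9a kept their direction and their call in every alternative that gave a p for them, 20, 21, 19, 20 and 21 settings in number, with highest limma adjusted p values of 5.16e-05 for Wnt3, 0.000286 and 0.00057 for the brighter and the inner Wnt1 probe, 0.000235 for Wnt10a and 0.000687 for Wnt9a. Wnt3, Wnt10a and the inner Wnt1 probe, dim on all KD d6 arrays, entered the main test through the Control d6 arrays alone. They had to differ, so their repeated calls are not separate support. They have no value where only probes above background on all 8 arrays were tested, which left 3 called member probes in place of 6. Wnt10b was no longer called with normexp and quantile normalization (0.25, limma adjusted p = 0.131), the authors' table (0.25, 0.131), median scaling (0.38, 0.18) or no filter (0.55, 0.0971). The same held with the replicate number as a block (0.55, 0.0792), with the KD d6 arrays that share a number in their file names averaged (0.55, 0.115) or blocked (0.55, 0.0591), and without KD d6 arrays 1 and 2 (0.55, 0.159) or 3 and 4 (0.54, 0.129). Labels with the same replicate number did not pair the arrays, since the correlations of their deviations were 0.12, -0.21, 0.17 and -0.31; the block changed no other member's call. Wnt8a was called only with median scaling (-0.44, 0.0437). Within slides, values moved by more than the spread between arrays for Wnt3 on slide 1 (-4.58), Wnt10a on slide 3 (-2.34), Wnt9a on slide 1 (1.60) and Wnt8a on slides 1 (0.10) and 3 (-1.14). Leaving out each array in turn gave 15538 to 16531 called probes, 5 to 6 member probes and 50 to 55 pathway genes. The change ran over -4.87 to -4.73 for Wnt3, -1.75 to -1.65 and -3.49 to -3.02 for the Wnt1 probes, -2.76 to -2.60 for Wnt10a, 1.35 to 1.50 for Wnt9a, 0.37 to 0.66 for Wnt10b and -0.37 to -0.13 for Wnt8a. The cause of these differences was not tested. Signal over background limits Wnt2, Wnt2b, Wnt3a and Wnt8b, which gave no test.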
